A study of Mus musculus with 6 samples.

Results

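The 10 genes described here belong to the MHC class II pathway of antigen presentation and were chosen by name: the class II chain genes H2-Aa, H2-Ab1 and H2-Eb1, the invariant chain gene Cd74, the peptide loading genes H2-DMa and H2-DMb1, the transactivator gene Ciita and the costimulatory genes Cd80, Cd86 and Cd83. All 10 were listed under these symbols among the 14016 rows of the authors' table. The table came from bulk RNA sequencing of poly(A) RNA from mouse quadriceps muscle, collected 7 days after volumetric muscle loss, an injury in which a piece of the muscle is cut out. There were 3 WT mice and 3 mice labelled GATA-1 mutant. The mutants are the ΔdblGATA mice of the study, which lack eosinophils because GATA sites in the promoter of the transcription factor gene Gata1 are deleted. All 6 mice were injured and none received an implant. The study's methods give saline in the wound as the control treatment and name young adult female C57BL/6 mice as WT; the strain background, age and sex of the mutants are not given in the sources used here.

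Of the 6 value columns in the table, 5 hold the authors' own comparison of the genotypes and were not used. The remaining column is the authors' mean of log2 CPM (read counts scaled to the size of each library) for each gene, pooled over the genotypes. It carries no value per mouse, so no genotype was set against the other, no error can be given for any level below, and the depth of each library is unknown. The table does not say over how many libraries the mean was taken.

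Class II molecules present peptides from engulfed material to CD4 T cells and are carried by dendritic cells, B cells and activated macrophages. An alpha and a beta chain pair in the endoplasmic reticulum and are held there by the invariant chain, which is later cut by proteases. The H2-DM heterodimer then exchanges the remaining fragment for a peptide. Ciita is a coactivator that is recruited to class II promoters by factors bound at the X and Y boxes, and a T cell that meets the complex also needs CD80 or CD86 on the presenting cell.

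The 10 genes did not lie at 1 level. Cd74, H2-Ab1 and H2-Aa stood far above the others, H2-DMb1 stood between, and the remaining 6 were in the lower part of the table. In the authors' pooled means, 3 of the 10 genes were above the median of all listed genes, 4.03 log2 CPM, and 7 were below it. Expressed per kilobase of the longest coding transcript, 4 of the 10 were above the corresponding median of 2.29 log2 CPM per kb, with H2-DMb1 added to the 3. Levels of different genes are compared below on this per-kilobase scale. Ratios are differences of mean log2 levels taken off the log scale, not ratios of mean counts. Their ranges come from the length taken and do not cover the spread over mice. For genes near the bottom of the table, such as H2-DMa, Cd80 and H2-Eb1, a mean of log2 values can rest heavily on the lowest libraries.

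**Figure D1:**
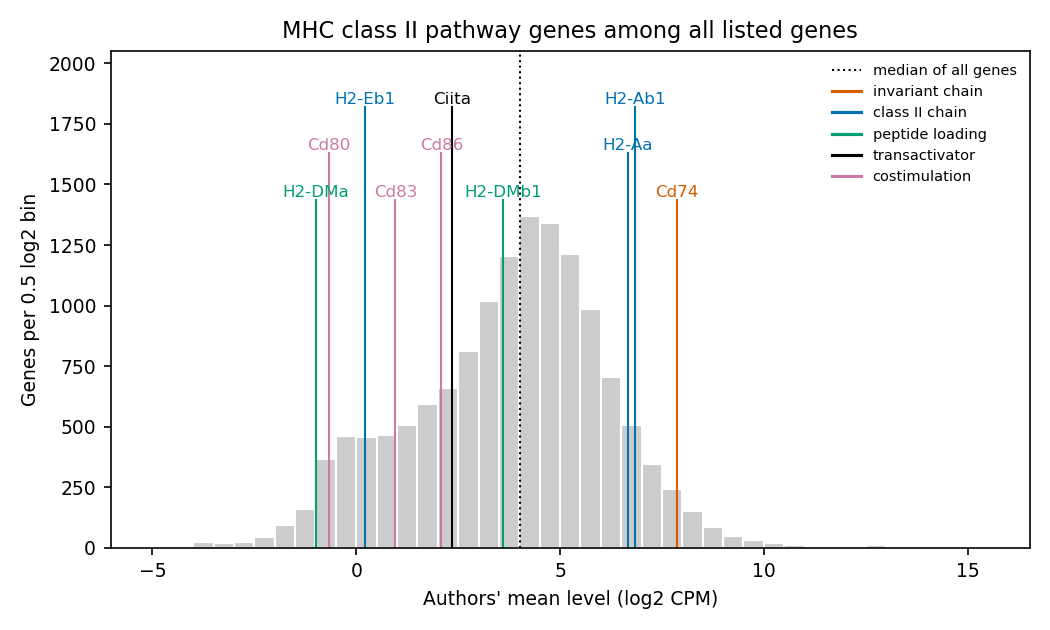
The grey bars give the number of listed genes in each bin of 0.5 on the log2 scale of the authors' pooled mean level (horizontal axis, log2 CPM), and each coloured line marks 1 of the 10 genes, coloured by its role. Cd74 at 7.88 log2 CPM, H2-Ab1 at 6.85 and H2-Aa at 6.66 lie right of the dotted median of 4.03, and the other 7 genes lie left of it.

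Cd74 (ENSMUSG00000024610.15, chromosome 18 of GRCm38, 60803848 to 60812652) encodes the invariant chain, which also serves as a surface receptor for the cytokine MIF. It had the highest level of the 10 genes, with an authors' mean of 7.88 log2 CPM. That placed it at rank 451 from the top, above 96.8% of listed genes. Per kilobase its level was 7.38 log2 CPM per kb, again the highest of the 10.

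H2-Ab1 (ENSMUSG00000073421.6, chromosome 17, 34257689 to 34269419) and H2-Aa (ENSMUSG00000036594.15, chromosome 17, 34282744 to 34287823) encode the beta and the alpha chain of the I-A molecule, and lie close together on opposite strands. The authors' mean was 6.85 log2 CPM for H2-Ab1 and 6.66 log2 CPM for H2-Aa, higher than 92.0% and 90.6% of listed genes. Per kilobase, the levels of these partner chains were 6.57 and 6.48 log2 CPM per kb, a difference of 0.09 on the log2 scale. The level of Cd74 per kilobase was 0.81 above that of H2-Ab1 and 0.90 above that of H2-Aa on the log2 scale. Over the 3 definitions of length, the ratio of Cd74 to H2-Aa lay between 1.86-fold and 3.19-fold and that to H2-Ab1 between 1.56-fold and 1.94-fold. The distance between the I-A chains depended on the length taken: it was 0.14 per kilobase of coding sequence and 1.03 per kilobase of the mean over all annotated transcripts, with H2-Ab1 higher in each.

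H2-Eb1 (ENSMUSG00000060586.11, chromosome 17, 34305867 to 34316674) encodes the beta chain of the other class II molecule, I-E. Its authors' mean was 0.21 log2 CPM, above only 9.84% of listed genes. Per kilobase, H2-Eb1 was at -0.53 log2 CPM per kb, which is 7.09 below H2-Ab1 and 7.01 below H2-Aa on the log2 scale. Taken off the log scale, H2-Ab1 was 137-fold above H2-Eb1, and between 107-fold and 137-fold over the 3 definitions of length. H2-Aa was 129-fold above H2-Eb1, and between 65.6-fold and 129-fold over the same definitions. The partner of H2-Eb1 is the alpha chain gene H2-Ea, which was not listed. C57BL/6 mice, the strain named for WT, are known not to express H2-Ea because its promoter is deleted. The strain background of the mutants is not given, so this covers the WT mice only. That deletion is in H2-Ea, and a link to the level of H2-Eb1 was not tested. H2-Eb1 shared 1.28% of its words of 31 bases with other genes, mostly with its relative H2-Eb2, which was not listed either. In the annotation Gm20513 overlaps H2-Eb1 on the opposite strand.

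H2-DMb1 (ENSMUSG00000079547.4, chromosome 17, 34153072 to 34160230) and H2-DMa (ENSMUSG00000037649.10, chromosome 17, 34119541 to 34139101) encode the beta and the alpha chain of the peptide exchange factor H2-DM. H2-DMb1 had an authors' mean of 3.60 log2 CPM and a level per kilobase of 3.11 log2 CPM per kb, above 64.4% of listed genes on that scale. H2-DMa had an authors' mean of -0.995 log2 CPM, the lowest of the 10 genes, and only 2.66% of listed genes were lower. Per kilobase, the alpha chain was 5.11 below the beta chain on the log2 scale. Taken off the log scale this was 34.6-fold, and it lay between 24.2-fold and 34.6-fold over the definitions of length. That range covers the length only. With H2-DMa among the lowest listed genes and no value per mouse, the size of the ratio is uncertain.

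These partner genes differed in how their reads could be assigned. H2-DMb1 shared 37.6% of its words of 31 bases with other genes, those of its neighbouring copy H2-DMb2 foremost, so its level is uncertain. H2-DMb2 itself was listed at an authors' mean of -0.92 log2 CPM. H2-DMa shared none of its words with another gene on either strand, Brd2 included, though its annotated span overlaps that of Brd2 on the opposite strand. Whether sharing has a part in the low level of H2-Eb1 was not tested. Nor was a part of overlap in the low level of H2-DMa or H2-Eb1.

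The promoters of class II genes are known for an X box, bound by the RFX complex and CREB, and a Y box, an inverted CCAAT sequence bound by NF-Y, and Ciita acts through the proteins bound there. RefSeq windows around the annotated start (GRCm38.p6, 250 bases before it and 50 after) were at hand for 5 of the 10 genes, in 6 windows as H2-DMa has 2. Of these, 3 windows held the letters GNAACT, part of the X box, followed after 10 to 30 bases by TGATTGG, part of the Y box: those of H2-Aa, H2-Eb1 and H2-DMb1. They are shown because genes with the same arrangement stood at very different levels. The 250 bases before the start are printed 5′ to 3′ on the strand of the gene, with both motifs in capitals. They are chr17:34287824-34288073 on the minus strand for H2-Aa, chr17:34305617-34305866 on the plus strand for H2-Eb1 and chr17:34152941-34153190 on the plus strand for H2-DMb1.
H2-Aa: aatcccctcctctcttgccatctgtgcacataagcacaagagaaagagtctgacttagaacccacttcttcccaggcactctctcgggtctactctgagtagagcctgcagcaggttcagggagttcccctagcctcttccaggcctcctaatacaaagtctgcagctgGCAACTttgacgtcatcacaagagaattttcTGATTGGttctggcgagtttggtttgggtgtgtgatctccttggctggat
H2-Eb1: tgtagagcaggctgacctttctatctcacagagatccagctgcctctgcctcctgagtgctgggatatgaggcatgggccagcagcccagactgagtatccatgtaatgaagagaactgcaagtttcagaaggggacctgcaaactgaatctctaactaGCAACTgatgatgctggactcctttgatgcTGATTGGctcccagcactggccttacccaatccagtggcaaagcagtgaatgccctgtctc
H2-DMb1: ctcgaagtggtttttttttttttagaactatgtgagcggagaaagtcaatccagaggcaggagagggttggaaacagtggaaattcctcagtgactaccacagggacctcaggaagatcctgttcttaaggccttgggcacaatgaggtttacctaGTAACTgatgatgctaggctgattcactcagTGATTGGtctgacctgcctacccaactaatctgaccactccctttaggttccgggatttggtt

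The motifs stood in the same order and at nearly the same spacing in the 3 windows. Between them lay 25 bases in H2-Aa, 24 in H2-Eb1 and 25 in H2-DMb1. The first base of GNAACT was 81 bases before the start in H2-Aa, 91 in H2-Eb1 and 94 in H2-DMb1. H2-Aa also held TGACGTCA, the palindrome that CREB binds, beginning 74 bases before the start and between the motifs. The H2-Eb1 and H2-DMb1 windows did not hold these letters.

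Both strands of all 32851 RefSeq windows were searched in the same way. GNAACT was in 42.8% of them, TGATTGG in 7.82%, TGACGTCA in 1.79%, and the ordered pair in 61 windows or 0.186%. The motifs were chosen with the windows of the class II genes in view, so that these shares are a description. The windows of H2-DMa and Cd80 did not hold TGATTGG, which says only that these letters are absent there. These windows lie inside the annotated spans of both genes, and starts elsewhere in the spans were not searched. On the per-kilobase scale, the genes with the pair were at 6.48 (H2-Aa), 3.11 (H2-DMb1) and -0.53 (H2-Eb1) log2 CPM per kb. The pair was thus found in genes at very different levels. Of the 3 highest genes only H2-Aa had a window, so the pair could not be sought in Cd74 and H2-Ab1.

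**Figure D2:**
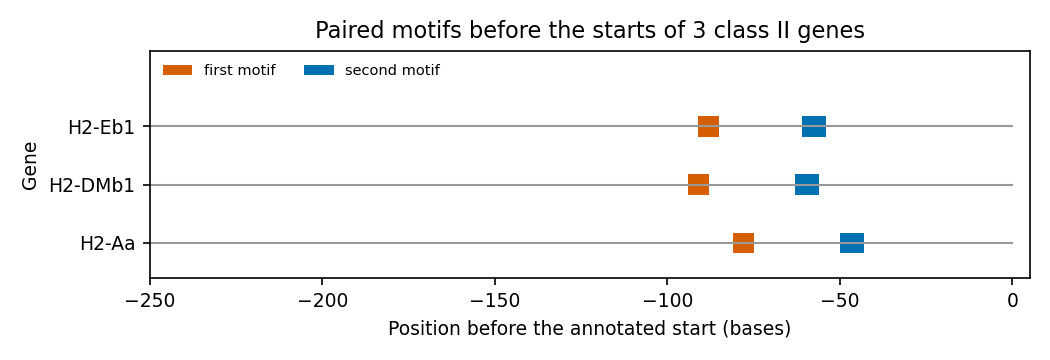
The horizontal axis gives the position in bases before the annotated start, and each grey line is the printed stretch of H2-Eb1, H2-DMb1 or H2-Aa. The orange boxes (first motif, GNAACT) and the blue boxes (second motif, TGATTGG) are 24 or 25 bases apart in the 3 genes.

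Ciita (ENSMUSG00000022504.10, chromosome 16, 10480059 to 10528418), the coactivator on which class II transcription depends, had an authors' mean of 2.35 log2 CPM. Because its longest coding transcript is 6007 nt, the longest of the 10, its level per kilobase was -0.23 log2 CPM per kb, above 17.3% of listed genes. The factors that bind the X and Y boxes were listed at higher levels. Per kilobase, the NF-Y subunit genes Nfya, Nfyb and Nfyc were at 2.43, 3.27 and 4.15 log2 CPM per kb. The RFX subunit genes Rfx5, Rfxap and Rfxank were at 1.58, 3.17 and 0.98 log2 CPM per kb, and Creb1 was at 1.94. Also per kilobase, the interferon response gene Irf1 was at 3.43 and the myeloid factors Irf8 and Spi1 at 2.86 and 3.09 log2 CPM per kb. The receptor chain genes for interferon gamma, Ifngr1 at 4.47 and Ifngr2 at 4.29, were above all of these. Of this list of 14 transcription and interferon genes 13 were listed, all 13 with a level per kilobase above that of Ciita. Ifng, the gene of interferon gamma itself, was not listed. Ciita shared 1.69% of its words of 31 bases with other genes, Dexi foremost. The annotated span of Ciita overlaps that of Dexi on the opposite strand, and a part of either in its level was not tested.

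Cd86 (ENSMUSG00000022901.13, chromosome 16, 36603869 to 36666081) and Cd80 (ENSMUSG00000075122.5, chromosome 16, 38455561 to 38496335) encode the ligands of CD28 and CTLA-4 on T cells. The authors' mean was 2.09 log2 CPM for Cd86 and -0.67 log2 CPM for Cd80. Per kilobase, Cd86 was at 0.75 and Cd80 at -2.33 log2 CPM per kb, so that Cd80 was the lowest of the 10 genes on this scale. Taken off the log scale, Cd86 was 8.47-fold above Cd80, and between 6.71-fold and 10.8-fold over the definitions of length.

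Cd83 (ENSMUSG00000015396.4, chromosome 13, 43784775 to 43803132), a marker of mature dendritic cells whose protein opposes the removal of class II and CD86 from the surface by a ubiquitin ligase, had an authors' mean of 0.96 log2 CPM. Its level per kilobase of -0.35 log2 CPM per kb lay between those of Cd86 and Cd80. Only 588 of the 2477 nt of its longest coding transcript are coding, so that its level per kilobase of coding sequence was 1.73. The ligases of this pathway were listed under older symbols, Marchf1 as March1 and Marchf8 as March8. Per kilobase, March1 was at 0.07 and March8 at 3.06 log2 CPM per kb.

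Other costimulatory genes lay in the range of Cd86, Cd83 and Cd80. Of 9 further genes of costimulation and its receptors 5 were listed, with levels per kilobase from -1.72 (Icosl) to 0.62 (Cd274) log2 CPM per kb. Cd40, the receptor through which T cells activate presenting cells, was at -0.06. On the T cell side, Cd28 was at 0.0033 and Cd4 at 0.09, while Cd40lg, Ctla4 and Icos were not listed.

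The proteases that prepare class II peptides were listed at levels from somewhat below those of the I-A chains to above them. Of 6 genes for proteases and the reductase of this step 5 were listed, from 5.34 to 8.76 log2 CPM per kb. Ctss, which cleaves the invariant chain, was at 6.20, beside 6.48 for H2-Aa and 7.38 for Cd74. Lgmn was at 6.16, Ctsl at 5.34, Ctsb at 7.56 and Ctsd at 8.76. The order depends on the length taken, which was 6168 nt for Ctsl and 4743 nt for Ctsb but 1355 nt for Ctss. Before length, the mean of Ctsl was 7.96 log2 CPM and that of Ctss 6.64. Other lengths were not tried for these genes. Ifi30, a lysosomal thiol reductase, was not listed. Of the 5 other class II chain and antagonist genes only H2-Ob, at -2.12, and H2-DMb2, at -1.49, were listed. H2-Ob encodes a chain of H2-DO, the inhibitor of H2-DM known from B cells. In all, 25 of the 36 pathway genes beyond the 10 were listed under the symbols searched, and 15 of these 25 were above the median of all genes per kilobase, beside 4 of the 10.

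**Figure D3:**
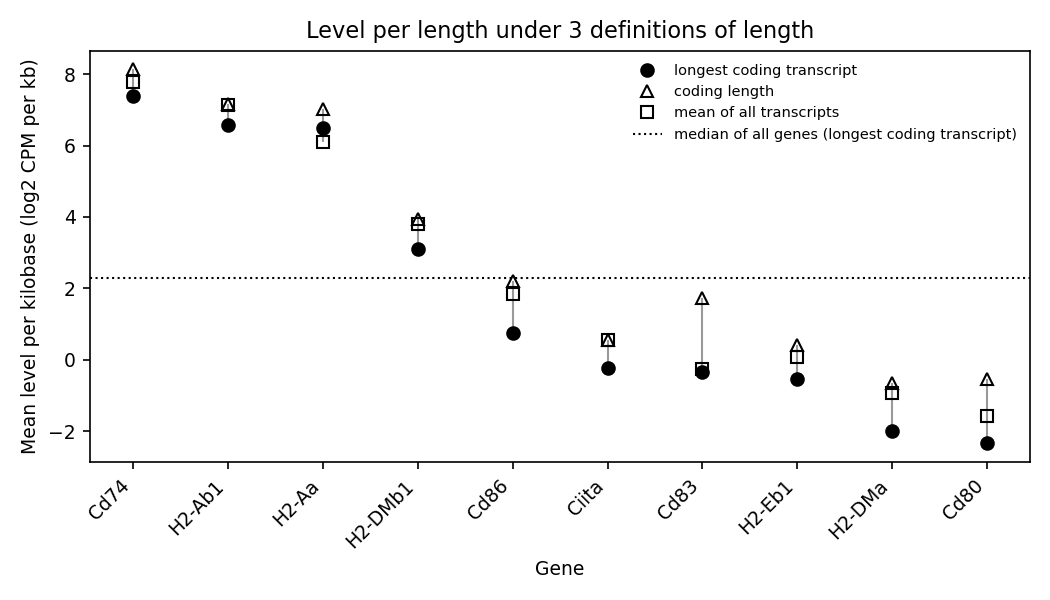
Each of the 10 genes on the horizontal axis has its pooled mean level per kilobase (vertical axis, log2 CPM per kb) for 3 lengths: the longest coding transcript (filled circle), the coding sequence (triangle) and the mean of all annotated transcripts (square), joined by a grey line. The order of Cd74, H2-Ab1, H2-Aa, H2-DMb1 and Cd86 is the same for each length, and H2-Eb1 lies far below H2-Ab1 and H2-Aa in each.

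Whole injured muscle holds many cell types, and in bulk samples fewer cells of a type and less RNA per cell cannot be told apart. The defining genes of the labelled tissue were present, as all 6 muscle fibre genes were listed, from 9.98 to 13.8 log2 CPM per kb. The markers of cells that could carry class II differed in level. Of 6 macrophage genes 5 were listed, from 1.68 to 4.75 log2 CPM per kb with Cd68 highest, and the remaining one, Adgre1, was listed as Emr1 at 3.01. All 8 dendritic cell genes were listed, from -2.18 (Flt3) to 1.76 (Itgax) log2 CPM per kb. Of the genes that mark the cross-presenting subset, Xcr1 was at -1.89, Clec9a at -1.25 and Batf3 at 0.44, the last above the list median of -0.40. Of 6 B cell genes only Cd79b was listed, at -0.66, while the defining markers Ms4a1, Cd79a and Pax5 were not.

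Set beside these lists on the same scale, Cd74, H2-Ab1 and H2-Aa were above every listed macrophage, dendritic cell and B cell marker, the nearest being Cd68. Cd86 and Cd83 lay within the range of the dendritic cell genes and below every listed macrophage gene. Cd80 lay below every listed macrophage, dendritic cell and B cell marker, at -2.33 against -2.18 for Flt3. Per kilobase of coding sequence, Cd80 was at -0.55, Cd86 at 2.20 and Cd83 at 1.73. With the mean of all transcripts they were at -1.57, 1.85 and -0.25. The markers were not given other lengths, so the places of Cd80, Cd86 and Cd83 here hold for the longest coding transcript only. The range of the listed T cell genes, -2.36 to 0.80 log2 CPM per kb, also held Cd86, Cd83 and Cd80. That of the listed neutrophil genes, -0.04 to 1.57, held Cd86. The 4 endothelial genes, from 2.51 to 4.63 log2 CPM per kb, also lay below the I-A chains. Which cells the class II transcripts came from was not tested.

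**Figure D4:**
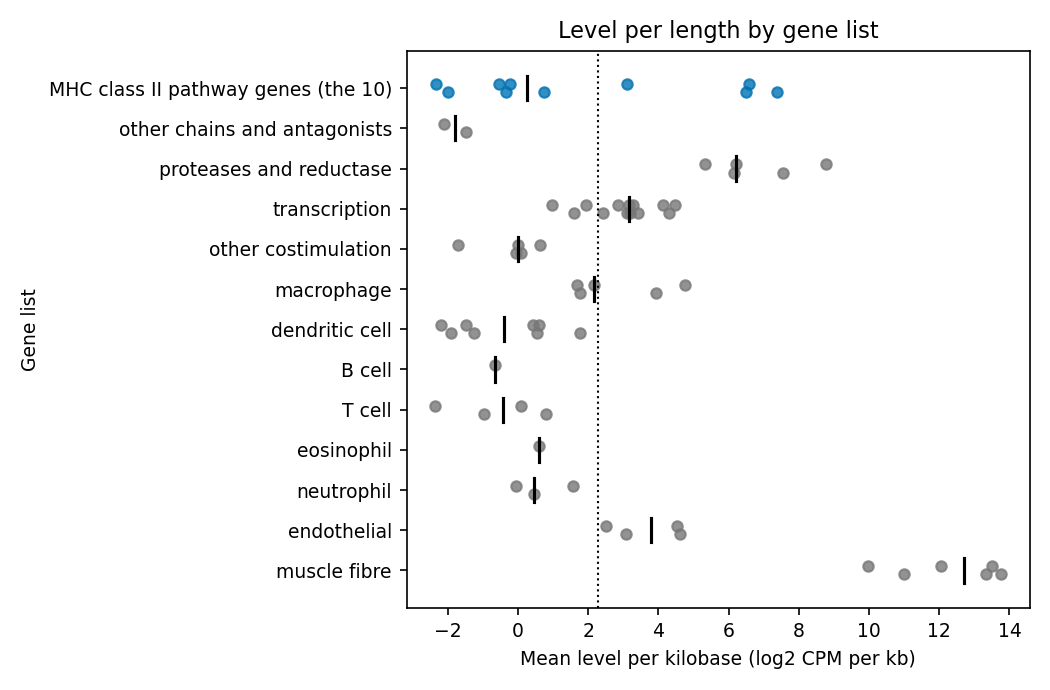
Each point is a listed gene at its pooled mean level per kilobase (horizontal axis, log2 CPM per kb), the rows are the 10 class II pathway genes, other pathway lists and cell type marker lists, black bars are the median of each row and the dotted line is the median of all genes, 2.29. The 3 highest class II pathway genes lie at 6.48 to 7.38, right of every listed macrophage, dendritic cell and B cell marker.

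The targeted gene could not serve as a check of the labels, since Gata1 was not listed. Of 8 eosinophil markers only Ear2 was listed, at 0.61 log2 CPM per kb, and Siglecf, Ccr3, Il5ra, Epx and Prg2 were not. Means below 0 log2 CPM were rare in the table, at 8.55% of genes, and 2 of the 10 genes, H2-DMa and Cd80, were among them. The authors' filter, per the study's methods, asked for more than 1 CPM in at least 3 samples. If that filter held for the values behind these means, a mean below 0 would mean that some libraries were above 0 and others below it. Whether it held was not tested, and the lowest mean listed was -4.08 log2 CPM. Which mice were above or below 0 cannot be read from the table. The spread over mice being unknown, it cannot be said which neighbours in the order of levels differ beyond it, such as H2-Ab1 and H2-Aa or Ciita, Cd83 and H2-Eb1.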

How the data were processed

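Quadriceps muscle of 3 WT and 3 GATA-1 mutant mice was sequenced as poly(A) RNA. According to the study's methods, kallisto pseudoalignment of the paired-end reads was followed by assignment of gene identity with ensembldb. The authors used edgeR for CPM and retained a gene if 3 or more samples exceeded 1 CPM. TMM normalization on the log scale and a limma fit came next. The submitters' processing notes name GRCm39 (mm39), and the transcript index is not given in the sources used here. The log2 values used are the deposited pooled means of log2 CPM, 1 per gene. The other 5 value columns hold the authors' own comparison of the genotypes (fold change, test statistics, p-values before and after adjustment) and were not used. The planned limma fit needed values per mouse and was not made.

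The 10 genes and all lists were chosen with earlier results of these data known. Named are all 10, all listed genes of a class II pathway list and the cell type markers the text turns on; single genes of these lists are not reported here. Symbols were matched exactly; 1 row had no symbol. Transcripts were taken from GENCODE M21 (GRCm38), where 13458 genes (96.0%) had a length, and the level per kilobase is the mean log2 CPM minus log2 of the length in kilobases. Shared sequence is the percent of 31-base words of a gene's longest coding transcript that also occur, on either strand, in a transcript of any other gene. Calculations used Python 3.11.15, numpy 2.4.6 and pandas 2.3.3, and were tested on simulated data. Alternatives tried were other lengths (for the 10 genes only), other sets of background genes and older symbols. The number of mice limits the precision of every level.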

Additional observations from a re-analysis of the deposited data

How the results depend on the processing

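No paired analysis was possible because the single usable column is pooled over all mice. This also meant that the genotype fit, leaving out each mouse, and other pseudocounts and filters were not run. The distance from the highest to the lowest of the 10 genes per kilobase was 9.71 on the log2 scale with the longest coding transcript, 8.77 with the coding length and 9.36 with the mean of all transcripts, by construction of the length. The rank of 5 of the 10 genes was the same under the 3 lengths; H2-DMa and Cd80 exchanged the last ranks with the coding length. All 10 genes were listed with or without older symbols. The number above the median was 3 of 10 among all listed genes, among the 11896 genes with a mean of at least 1 log2 CPM and among the 13224 protein-coding genes. The percent of genes below a low gene did move with the minimum of 1 log2 CPM, as fewer low genes were left to compare with. It went from 26.2% to 13.0% for Ciita and from 23.8% to 10.2% for Cd86. H2-Eb1, at 0.21 log2 CPM, is itself under that minimum, so its move from 9.84% to 0% was fixed by the setting. The same holds for H2-DMa, Cd80 and Cd83. With the depth of the libraries unknown, no limit of detection can be given for genes that were not listed.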
